A study of Mus musculus with 5 samples.

Results

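Fibrillin microfibrils and the latent TGFβ binding proteins that attach to them were examined in mouse dorsal skin through 9 genes chosen by name. Of these, 8 genes had 16 probe sets that the platform annotation mapped to 1 of them alone, out of 18193 genes measured in all, and *Fbn1* was not analysed here. The genes were picked because *Fbn2*, *Mfap4* and *Ltbp2* were higher in *Clock* mutant skin, so the differences between genotypes given for these 8 genes are descriptions and carry no test. Skin was taken at postnatal day (P) 23 from 2 *Clock* mutant mice and 3 wild-type (WT) littermates, and RNA of each mouse was hybridized to its own Affymetrix array. All 5 mice were staged as telogen, the resting phase of hair growth. In its separate wild-type time course the paper classed P23 as early anagen, the start of growth. The first *Clock* mutant was a male, and all others, mutant and WT, were females. The *Clock* mice had a C57BL/6J background, and neither the allele and its zygosity on these arrays nor the hour of collection is given in the labels. Dorsal skin holds epidermis, follicles, dermis, fat, vessels and muscle, and in such a mixture fewer cells of a type and less RNA per cell cannot be told apart.

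Microfibrils are beaded filaments of fibrillin that form the scaffold on which elastin is laid down in the dermis and that also run free of elastin towards the epidermis. *Fbn2* encodes fibrillin-2, which is best known from developing tissues. *Mfap2* and *Mfap5* encode the small glycoproteins MAGP-1 and MAGP-2, which decorate microfibrils, and *Mfap4* encodes a fibrinogen-like glycoprotein of elastic fibres. The latent TGFβ binding proteins resemble fibrillins: LTBP-1, LTBP-3 and LTBP-4 hold latent TGFβ in the matrix, whereas LTBP-2 lacks this activity and binds fibrillin.

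The sequence before the gene start was available for 5 of the 8 measured genes, in 9 windows of 250 bases from RefSeq (GRCm38.p6), 2 of them overlapping at *Ltbp4*. These windows were searched on both strands for the elements through which clock proteins act. The E-box CACGTG, which CLOCK and BMAL1 bind, occurred in none of the 9 windows and in 6.02% of 32851 windows of all genes. The E'-box CACGTT (3.85% of all windows) and the D-box TTATGTAA (0.819%) also had no match. The motif AGGTCA, the core of the RRE to which REV-ERB and ROR receptors bind and which many other nuclear receptors share, was found in both *Mfap2* windows and in 14% of all windows. *Ltbp2* is shown because it is the only one of the 3 genes behind the choice with a window here, and *Mfap2* because its windows held the only matches. For each, the bases outside the annotated gene are printed, 5′ to 3′, with AGGTCA in capitals.
Ltbp2, chr12:84876559-84876741, minus strand: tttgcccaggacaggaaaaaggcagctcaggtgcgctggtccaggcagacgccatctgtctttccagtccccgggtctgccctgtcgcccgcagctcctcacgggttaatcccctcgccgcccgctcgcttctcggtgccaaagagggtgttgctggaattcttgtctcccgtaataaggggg
Mfap2, chr4:141010174-141010423, plus strand: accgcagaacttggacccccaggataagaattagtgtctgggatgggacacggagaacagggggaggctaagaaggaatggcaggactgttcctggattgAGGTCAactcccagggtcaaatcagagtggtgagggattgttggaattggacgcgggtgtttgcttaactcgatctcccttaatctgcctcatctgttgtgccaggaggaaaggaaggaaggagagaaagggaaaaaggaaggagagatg
In *Ltbp2*, 61.6% of the 250 bases were G or C, against a median of 52.4% over all windows. These windows cover only the bases next to each start, and a match is not a binding site.

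Each value below is the MAS5 signal intensity of a probe set on a linear scale, or the log2 difference, *Clock* mutant minus WT, with its standard error (SE) or 95% interval from limma. A probe set is a group of array oligonucleotides read as 1 value. Where a gene had several, the brightest stands for it. Groups are said not to overlap where both mutant values lie on 1 side of all 3 WT values, which was the case for 27.9% of the 12955 genes tested. Intensities of different probe sets have no common scale, and levels of different genes were not compared. Sums over marker genes serve to compare arrays only, and the brightest probe sets weigh most in them.

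MAS5 scaling gave all arrays the same trimmed mean, and the median intensity was 105.8 in the male mutant and 114.3 to 117.9 on the other 4 arrays. Correlations between arrays were 0.95 to 0.96 on the log2 scale. Of 11 lists of cell type markers, fibroblast genes (8 of 8 measured) had summed intensities of 129728 and 123064 in the mutants and 124591 to 134576 in WT skin. Epidermal genes (6 of 6) had sums of 86504 and 87343 against 79194 to 88312. Genes of the hair shaft and root sheath (6 of 7 measured, with *Krt35* below the filter on dim probe sets) summed to 7220 in the male and 1338 in the female mutant, against 1366, 458 and 505 in WT replicates 1, 2 and 3. The male mutant stood apart in these follicle differentiation genes, and whether hair stage differed between the 5 mice was not tested. Adipocyte genes (4 of 5 measured) summed to 35239 in the male and 31226 in the female mutant and to 34904 to 39469 in WT skin, so that the female mutant was below every WT mouse. All fibroblast, epidermal, smooth muscle and skeletal muscle markers passed the filter, which are cell types of whole dorsal skin.

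Of the fibrillins, *Fbn2* was higher in both mutant mice. At its brighter probe set the male mutant had an intensity of 484 and the female mutant of 407, while WT replicates 1, 2 and 3 had 140.2, 182 and 193. Mutant skin averaged 446 ± 54.5 (SD, n = 2), 2.61-fold above the WT average of 172 ± 27.9 (SD, n = 3). The lower mutant value was above the highest WT value, and the groups did not overlap. The log2 difference was 1.38 (SE 0.186, 95% interval 0.96 to 1.81), the largest of the 8 genes.

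The second *Fbn2* probe set gave a smaller difference of the same sign. Its intensity was 211 and 178 in the mutants and 125, 128 and 122 in WT skin, again without overlap. Its log2 difference was 0.64 (95% interval 0.22 to 1.06), and the mean of both probe sets differed by 1.01. Without the male mutant the log2 difference at the brighter probe set was 1.26.

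**Figure D1:**
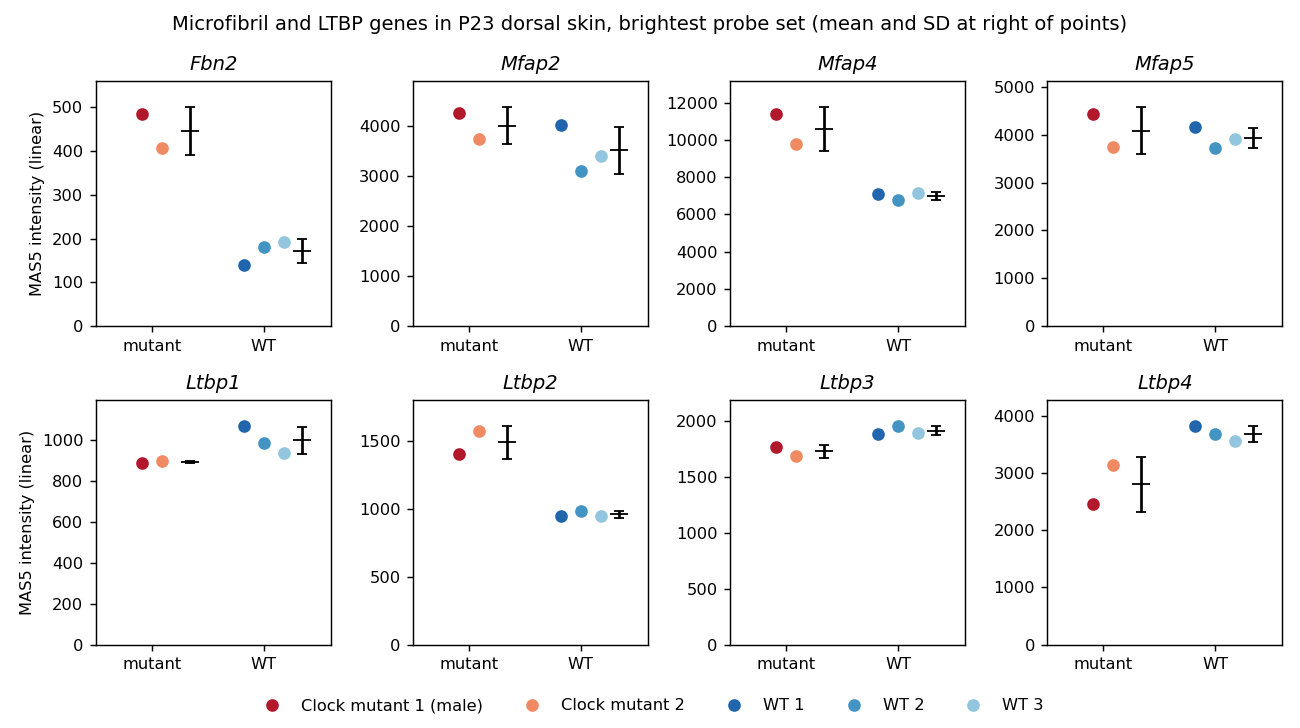
MAS5 intensity on a linear scale (vertical axes, from 0) at the brightest probe set of each of the 8 measured genes, for 2 *Clock* mutant arrays (red and orange) and 3 WT arrays (blue), with the group mean and SD in black. *Fbn2*, *Mfap4* and *Ltbp2* lie higher in both mutants than in any WT mouse, while *Ltbp4* lies at 2461 and 3141 in the mutants and at 3558 or more in WT skin.

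The microfibril glycoproteins differed from each other. *Mfap4* had intensities of 11415 and 9771 in the mutants and of 7104, 6753 and 7162 in WT skin. Both mutant mice lay above all 3 WT mice, whose values were close to each other. The means were 10593 ± 1163 (SD, n = 2) for the mutants and 7006 ± 221 (SD, n = 3) for the WT mice, 1.51-fold apart, with a log2 difference of 0.59 (SE 0.0818, 95% interval 0.41 to 0.78). The difference was 0.48 without the male mutant and 0.70 without the female mutant, the male having the higher value.

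*Mfap2*, which encodes MAGP-1, had intensities of 4274 and 3747 in the mutants and of 4034, 3111 and 3411 in WT skin at its brighter probe set. WT replicate 1 lay between the mutant mice, so the groups overlapped. The log2 difference of 0.19 had a 95% interval of -0.07 to 0.46. The dimmer probe set ran from 129 to 227 in the mutants and from 124 to 268 in WT skin, with a difference of -0.07 whose interval of -0.84 to 0.69 is too wide to set a direction.

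*Mfap5*, which encodes MAGP-2, had 2 bright probe sets that gave small differences. At the brighter, the intensity was 4431 and 3737 in the mutants and 4154, 3730.1 and 3916 in WT skin. The groups overlapped, and the log2 difference was 0.05 (95% interval -0.16 to 0.26). The other had values of 3479 and 3312 against 3227, 2916 and 3087, without overlap. Its difference was 0.14 (95% interval -0.04 to 0.32). Without the male mutant the brighter one turned to -0.07 and the other was at 0.11.

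Among the 4 latent TGFβ binding protein genes, *Ltbp2* was higher and *Ltbp4* lower in the mutants. *Ltbp2*, whose product binds fibrillin and does not carry TGFβ, had intensities of 1401 and 1575 in the mutants and of 943, 984 and 947 in WT skin. Both mutants were above every WT mouse. The means were 1488 ± 123 (SD, n = 2) and 958 ± 22.8 (SD, n = 3), a 1.55-fold higher level in the mutants and a log2 difference of 0.63 (SE 0.0973, 95% interval 0.41 to 0.85). Unlike *Fbn2* and *Mfap4*, *Ltbp2* was higher in the female than in the male mutant, and the difference was 0.72 without the male.

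*Ltbp4*, whose product binds latent TGFβ1 and takes part in elastic fibre assembly, was lower in both mutants. Its intensity was 2461 and 3141 in the mutants and 3828, 3677 and 3558 in WT skin. The groups did not overlap, and WT skin was 1.33-fold higher. The log2 difference was -0.41 (SE 0.107, 95% interval -0.65 to -0.17). It was -0.58 in the male and -0.23 in the female mutant relative to the WT mean, so the female mutant lay nearer to WT skin than to the male mutant.

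*Ltbp1* and *Ltbp3*, the other TGFβ carriers, differed little. At its brightest probe set *Ltbp1* had 891 and 899 in the mutants and 1071, 987 and 939.6 in WT skin, a log2 difference of -0.16 (95% interval -0.39 to 0.07). Both mutants were below every WT mouse, and the interval included 0. Its other 2 probe sets, with mean WT intensities of 36.8 and 19.0, fell below the filter of 56.7, and their groups overlapped.

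For *Ltbp3*, the bright probe sets pointed in opposite directions. The brightest had intensities of 1766 and 1687 in the mutants and of 1880.2, 1954 and 1892 in WT skin. The next had 1985 and 1814 in the mutants and 1796, 1613 and 1724 in WT skin. Neither showed an overlap of the groups, yet their log2 differences were -0.15 (95% interval -0.33 to 0.04) and 0.15 (95% interval -0.06 to 0.36). A non-overlap of so few arrays thus occurred in both directions within 1 gene. The 2 dimmer probe sets had overlapping groups and differences of 0.24 and -0.11. With all 4 averaged, the *Ltbp3* difference was 0.03.

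**Figure D2:**
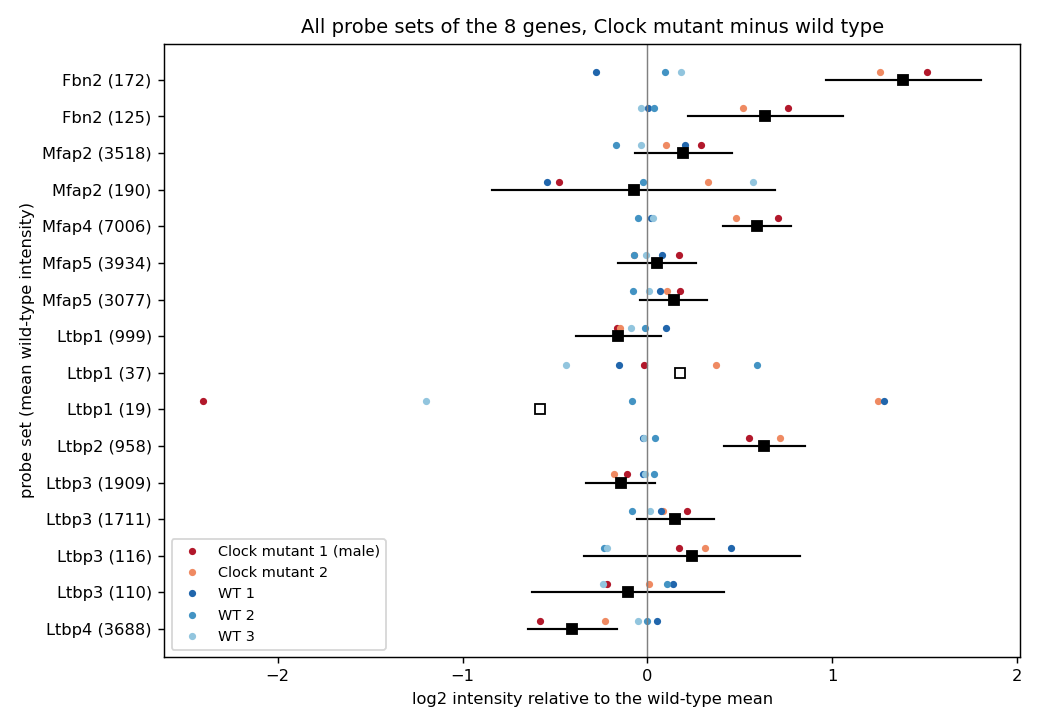
Log2 difference between *Clock* mutant and WT skin (horizontal axis, black squares with 95% intervals) for all 16 probe sets of the 8 genes, labelled with their mean WT intensity; coloured points are single arrays relative to the WT mean and open squares are the 2 *Ltbp1* probe sets below the filter. Both *Fbn2* probe sets lie to the right, the bright *Ltbp3* probe sets lie at -0.15 and 0.15, and *Ltbp4* lies at -0.41.

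Over the 8 genes the median log2 difference was 0.12, with 5 positive, against 0.02 and 53.6% positive over 12955 genes tested. The groups did not overlap in 6 of 8 genes, 3 higher and 3 lower, while 15.7% of all genes were higher and 12.3% lower without overlap. Since the contrast chose the genes, nothing is read from these counts, and calls by adjusted p are not given for the 8 genes. Of all 27022 probe sets tested, 0.0888% had a limma adjusted p under 0.05. Setting all arrays to the same median did not turn the direction at the brightest probe set of any of the 8 genes.

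Of the marker lists, those of hair shaft and root sheath and of adipocytes differed most between the groups. Relative to the WT mean, the median over 8 fibroblast markers was 0.03 in the male and -0.05 in the female mutant, and that over 5 smooth muscle markers was 0.09 and 0.14. The median over 4 adipocyte markers was -0.02 in the male and -0.34 in the female mutant. *Fabp4* (-0.18) and *Cidec* (-0.36) were lower in both mutants than in any WT mouse. Neither passed the adjusted threshold (limma adjusted p = 0.416 and 0.339). The groups overlapped for the other measured adipocyte markers, *Adipoq* (-0.04) and *Lep* (0.12). Hair shaft and root sheath genes stood at 3.20 in the male mutant, 1.00 in the female mutant and 0.99 in WT replicate 1. Within this list all 6 measured genes were positive and none passed the adjusted threshold. The 6 hair genes had limma adjusted p of 0.181 to 0.362, each with an unadjusted p under 0.05, and the part of hair and adipocyte genes in the differences of the microfibril genes was not tested. Sex cannot be told apart from the individual in the male mutant.

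**Figure D3:**
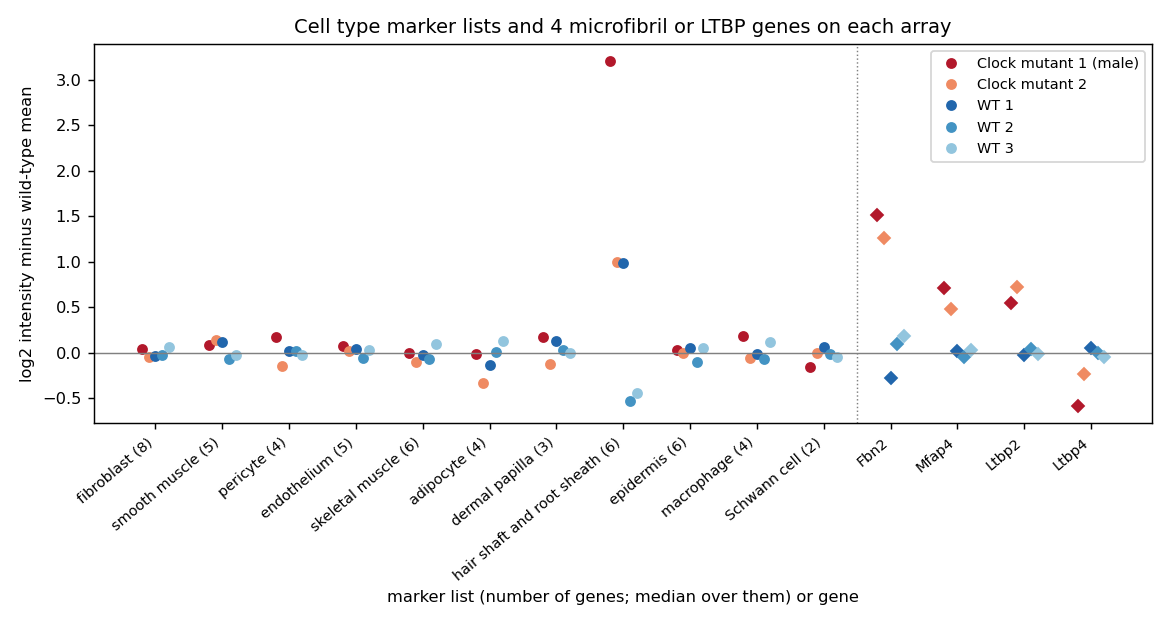
Log2 intensity relative to the WT mean (vertical axis) on each array for 11 cell type marker lists, as the median over the number of genes in brackets, and for 4 microfibril and latent TGFβ binding protein genes at the right. The hair shaft and root sheath list is at 3.20 in the male *Clock* mutant and near 1 in *Clock* mutant 2 and WT 1, whereas the fibroblast list stays within 0.07 of the WT mean.

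Partners of microfibrils outside the 9 genes were taken from 6 lists by role, 55 genes in all, of which 46 could be tested. These lists were drawn up with earlier results of these data known, so calls among them are not an independent test. Here 1 gene rose and 0 fell at a limma adjusted p under 0.05 over all probe sets, while 0.0232% of all 12955 genes rose and 0.0926% fell. The median log2 difference over the 46 genes was -0.01, with 23 positive. An unadjusted p under 0.05 was found for 11 of the 46, and for 10% of all genes.

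Among 14 measured elastic fibre partners, 1 rose, 0 fell, and the median was 0.11. *Eln*, elastin itself, had intensities of 11138 and 9907 in the mutants and of 6379.8, 5632 and 5895 in WT skin, and rose by 0.82 on the log2 scale (SE 0.0832, limma adjusted p = 0.0144). A dimmer *Eln* probe set differed by 0.22 (adjusted p = 0.619). *Efemp1*, which encodes fibulin-3, was at 4149 and 4090.1 in the mutants and at 5432, 5565 and 5400.1 in WT skin, without overlap. Its log2 difference of -0.41 missed the threshold (SE 0.0686, adjusted p = 0.103). *Lox*, lysyl oxidase, which cross-links elastin and collagen, had a difference of 0.36 (adjusted p = 0.23), and 0.37 at its other probe set. The *Eln* call was lost without the male mutant, without WT replicate 2 or without WT replicate 3.

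Of 13 measured genes for TGFβ ligands and the proteins that release or process them, none passed the adjusted threshold (3 had an unadjusted p under 0.05). *Tgfb2* had intensities of 1031 and 1159.8 in the mutants and of 755, 623 and 647 in WT skin. The mutants were above every WT mouse, and the log2 difference was 0.70 (SE 0.121, adjusted p = 0.113). Its other 3 probe sets past the filter differed by 0.40 to 0.64. *Tgfb1* had values of 415 and 675 against 734, 810.5 and 839, a difference of -0.58 (adjusted p = 0.356) with the male mutant the lower. Without the male the *Tgfb1* difference was -0.23, and its dimmer probe set gave -0.09 with both mutants. *Itgav*, the integrin chain through which cells pull TGFβ1 and TGFβ3 free, differed by 0.19 (adjusted p = 0.435).

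The other 4 lists held no gene past the limma adjusted threshold, with 3 genes at an unadjusted p under 0.05. Of 8 ADAMTS family genes, secreted proteases and related proteins several of which bind fibrillin, 2 were positive, and *Adamtsl4* (-0.34, adjusted p = 0.315), *Adamts10* (-0.42, adjusted p = 0.375) and *Adamtsl2* (-0.32, adjusted p = 0.547) had the smallest p. Without the male mutant these 3 differences were -0.20, -0.27 and -0.52. Of 4 measured BMP ligands, growth factors whose propeptides bind fibrillin, *Bmp4* had the smallest p (-0.38, adjusted p = 0.3), ahead of *Bmp5* (0.23) and *Bmp2* (-0.18). Without the male mutant *Bmp5* was at 0.06 and *Bmp2* turned to 0.13. *Bmp4* had intensities of 1029 and 943 in the mutants and of 1379, 1185 and 1287 in WT skin. The 5 measured TGFβ response genes ran from -0.41 for *Ccn2*, connective tissue growth factor (adjusted p = 0.528), to 0.09 for *Tgfbi*, and *Postn*, periostin, was at -0.07. *Ccn2* had 3521 in the male and 5502 in the female mutant and 4468, 7335 and 6148 in WT skin, with overlap, and its difference was -0.09 without the male. *Postn* turned to 0.02 without the male. *Mfap3* (0.12, adjusted p = 0.652) and *Mfap3l* (0.00, adjusted p = 0.995), the measured genes of the list of other Mfap genes, also missed the threshold. A missed threshold with 2 mutant mice does not show that a gene is unchanged.

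**Figure D4:**
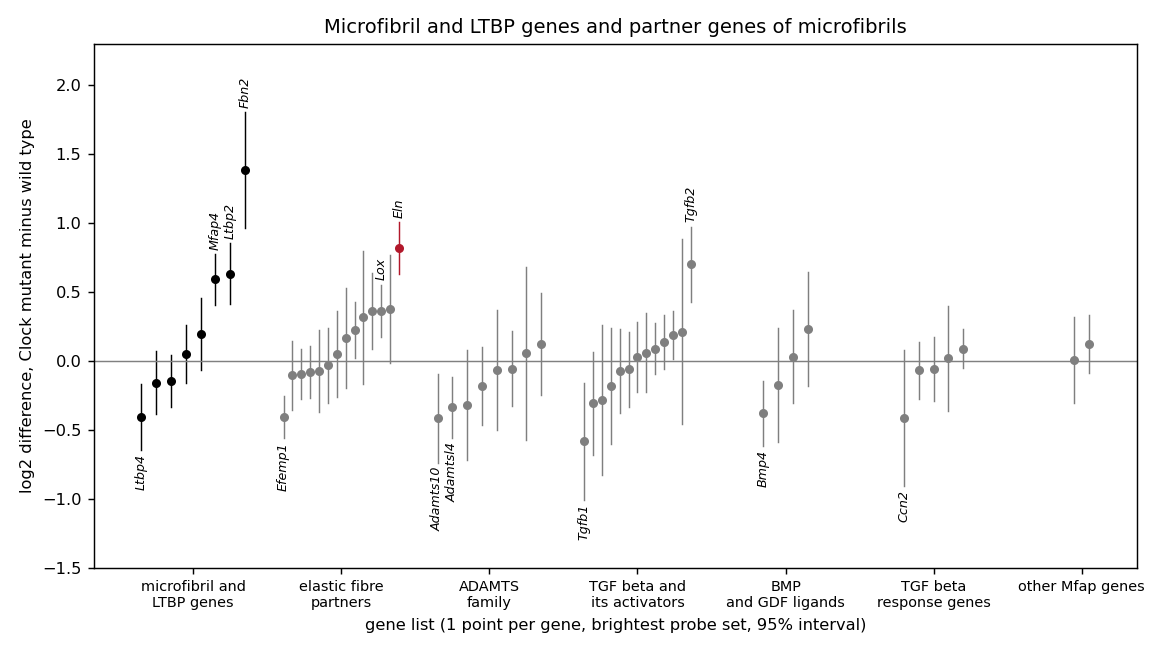
Log2 difference, *Clock* mutant minus WT (vertical axis), for the 8 microfibril and latent TGFβ binding protein genes (black) and for partner genes in 6 lists (horizontal axis), 1 point per gene with its 95% interval; red marks the partner gene with a limma adjusted p under 0.05. *Eln* is the red point at 0.82, *Tgfb2* lies at 0.70, and *Tgfb1* lies at -0.58. The *Tgfb1* difference without the male (-0.23) is not drawn.

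The genes whose levels ran most like these over the 5 arrays were listed by the root mean square difference of log2 profiles set to the WT mean, as a description. For *Fbn2* the nearest were *Cldn10* (0.27), a tight junction claudin, *Gjb6* (0.31), a connexin, *Plet1os* (0.32), *Casq2* (0.34), a calcium store protein of muscle, and *Mrln* (0.36), a micropeptide of muscle. No gene was within 0.2 of *Fbn2*. Its spread within groups (pooled log2 SD 0.23) was above that of *Mfap4* (0.10) and *Ltbp2* (0.07). Counts within 0.2 therefore do not rank these genes. *Mfap4* had 350 genes within that distance, led by *Fhl2* (0.03), *Ppargc1b* (0.04), *Npl* (0.04), *Gnb4* (0.06) and *Xirp1* (0.06). *Ltbp2* had 131, led by *Myom3* (0.02), *Rnf144a* (0.07), *Arntl* (0.08), which encodes BMAL1, *Acaa1b* (0.09) and *Qtrt1* (0.10). Neither of the other 2 genes behind the choice was among the 5 nearest of *Fbn2*, *Mfap4* or *Ltbp2*.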

How the data were processed

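RNA was extracted with Trizol from P23 dorsal skin of 5 mice, and the authors hybridized 1 Affymetrix array per mouse. The deposited values were linear signal intensities made with MAS5, which corrects each probe set with its mismatch probes and applies 1 scaling factor per array. Every array had a 2% trimmed mean of 500.0. The MAS5 version is not given in the sources used here. Detection calls were left aside. The platform annotation supplied gene names. After a floor of 1 was applied (2441 values lay below it), intensities were log2 transformed. The 27022 of 45037 non-control probe sets at or above the 40th percentile of mean log2 intensity (an intensity of 56.7) entered a limma model (version 3.58.1, R 4.3.3) with moderated variances that follow intensity. Two-sided p-values were adjusted over all of them (Benjamini-Hochberg, threshold 0.05). The procedure was tested on simulated data. Precision is limited by the number of arrays. The 9 genes, the partner lists and the marker lists were chosen with earlier results of these data known. *Fbn1* was not analysed here, and every probe set of the other 8 genes was described. From each partner list, genes past the threshold and otherwise those with the smallest p, up to 3, were named, and for *Fbn2*, *Mfap4* and *Ltbp2* the 5 nearest profiles. Alternatives changed the scaling, filter, log offset, prior or test, averaged the probe sets of a gene, took the replicate number as a block, or left out each array.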

Additional observations from a re-analysis of the deposited data

How the results depend on the processing

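The direction of *Fbn2*, *Mfap2*, *Mfap4*, *Ltbp1*, *Ltbp2* and *Ltbp4* was kept under all 15 alternatives. *Fbn2* lay between 1.24 and 1.51 (1.01 with its probe sets averaged), *Mfap4* between 0.48 and 0.70, *Ltbp2* between 0.55 and 0.72 and *Ltbp4* between -0.58 and -0.23. A changed prior or test leaves each difference as it is, and here the changed filters did so too. The replicate block gave the same differences as leaving out WT replicate 3. Where the groups did not overlap, leaving out 1 array could not turn the direction. *Mfap5* turned to -0.07 without *Clock* mutant replicate 1, and *Ltbp3* to 0.03 with the mean of its probe sets. The median over the 8 genes was 0.12, and 0.0133 to 0.23 when 1 array was left out, the extremes being without *Clock* mutant replicates 1 and 2. It was 0.21 with median centring, which took the median of all probe sets from -0.02 to 0.07, and 0.08 with probe sets averaged. With 1 mutant array left, that array is assumed to vary like WT skin.

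The number of probe sets past the adjusted threshold was 24 by limma with all arrays, 10 without a filter, 47 with a Cyber-T style test, 106 with the replicate block and 0 without an intensity trend (2631 at an unadjusted p under 0.05). The block terms leave little from which to estimate the spread between mice, so the count of 106 is not on a par with the others. Leaving out 1 array gave 0 to 201: 13 without *Clock* mutant replicate 1, 201 without *Clock* mutant replicate 2, 20 without WT replicate 1, and 0 by limma without WT replicate 2 (1581 at an unadjusted p under 0.05) or WT replicate 3 (2194). Partner genes called went from 1, *Eln*, to 0 without an intensity trend or with the probe sets of each gene averaged, and to between 0 and 2 when 1 array was left out, *Tgfb1* being called beside *Eln* without *Clock* mutant replicate 2. Since this contrast chose the 8 genes, an adjusted p for them tests nothing, and their calls under the alternatives are not listed. The causes of the changes in these counts were not tested. Deviations from the group mean correlated at 0.0078 and 0.0986 for same-numbered arrays, and at 0.0796 for *Clock* mutant replicate 1 with WT replicate 3. The deviations of 2 mutants mirror each other, so these values cannot decide on pairing. The numbers were not taken as pairs. The replicate block, in which WT replicate 3 has no partner and drops out, gave a median of 0.11 over the 8 genes and 1 partner gene called.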
